A study of Rattus norvegicus with 12 samples.

Results

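The NR4A orphan nuclear receptors were examined in rat pituitary cultures enriched for gonadotropes, with and without gonadotropin-releasing hormone (GnRH). The members were all probe sets whose single gene symbol in the platform annotation is Nr4a1, Nr4a2 or Nr4a3. There were 6 such probe sets of 31099 in the table, 1 for Nr4a1 (1386935_at), 2 for Nr4a2 (1369007_at and 1387410_at) and 3 for Nr4a3 (1393389_at, 1369067_at and 1369217_at). Of the 6, 5 passed the filter on dim probe sets; 1387410_at did not, and its values come from a fit without that filter.

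The GnRH group held 6 samples given 10 nM GnRH for 40 min on culture day 3, and the vehicle group held 6 samples given the same volume of vehicle medium for 40 min. All cells came from adult female Sprague-Dawley rats ovariectomized 2 weeks earlier, with 13 to 15 pituitaries pooled per experiment, and all were kept in medium with kanamycin, 0.2 nM estradiol and 10% charcoal-treated fetal bovine serum. Large cells were taken from a sedimentation gradient, and 40 to 60% of them stained for luteinizing hormone (LH), so that a large share were not gonadotropes. Each of 3 preparations, called enrichment sets I, II and III in the labels, gave 2 samples of each agent and was measured on Affymetrix Rat Expression Array 230 2.0, 1 array per sample.

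NR4A proteins are nuclear receptors with no known hormone ligand that is needed for their activity. They are controlled mainly through their amount, and their genes belong to the immediate early genes, which are switched on within minutes through factors such as CREB, MEF2 and SRF when a cell is stimulated. They bind DNA as monomers at the NBRE element or as dimers at the NurRE element, and Nr4a1 and Nr4a2 can also pair with RXR receptors. In the pituitary they are best known from corticotropes, where they act on the Pomc promoter downstream of corticotropin-releasing hormone. In mouse gonadotrope cell lines GnRH is known to induce Nr4a1.

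Promoter windows from RefSeq (build GRCr8, 250 bases before to 50 after the annotated start used in that table) were found for 2 of the 3 genes, Nr4a1 and Nr4a2. Both windows lie inside the span of their gene in the RefSeq gene table, so each belongs to a single start among several annotated. They are shown because CREB, a mediator of immediate early induction, recognises the word CGTCA. Capitals mark CGTCA or its reverse complement TGACG. The Nr4a1 window is chr7:134259888-134260187 on the plus strand and the Nr4a2 window chr3:62104838-62105137 on the minus strand, each printed 5′ to 3′ along its gene.
Nr4a1: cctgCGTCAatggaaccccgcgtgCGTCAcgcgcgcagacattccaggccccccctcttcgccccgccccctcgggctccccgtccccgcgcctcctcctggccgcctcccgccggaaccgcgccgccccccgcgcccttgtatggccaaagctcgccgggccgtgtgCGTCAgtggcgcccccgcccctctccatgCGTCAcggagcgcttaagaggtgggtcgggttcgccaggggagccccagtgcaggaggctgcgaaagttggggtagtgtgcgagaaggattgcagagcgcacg
Nr4a2: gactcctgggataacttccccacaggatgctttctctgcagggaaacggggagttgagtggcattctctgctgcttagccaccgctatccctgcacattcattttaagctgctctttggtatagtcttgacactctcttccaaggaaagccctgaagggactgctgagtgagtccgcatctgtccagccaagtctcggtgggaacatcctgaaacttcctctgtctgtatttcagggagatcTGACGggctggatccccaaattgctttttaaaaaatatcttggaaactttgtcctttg

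The Nr4a1 window held CGTCA 4 times, each within the longer word TGCGTCA on the gene's own strand, beginning at -248, -228, -84 and -55 relative to the start. Of the 33469 promoter windows of that length in the RefSeq table, 1.9% held TGCGTCA at least once on either strand, and 1 window, that of Nr4a1, held it 4 times or more. The shorter CGTCA occurred in 21.2% of the windows, and 4 times or more in 0.236%. The longer word and the cut of 4 are those seen in the Nr4a1 window itself. These shares cover all windows, whatever their G or C content, so they do not test whether Nr4a1 is unusual. The Nr4a2 window held CGTCA once, on the opposite strand, and TGCGTCA 0 times. Neither window held the full palindrome TGACGTCA (1.83% of all windows), the NBRE word AAAGGTCA (1.43%), the AP-1 word TGAGTCA (4.63%), a CArG box (1.64%) or a MEF2 site (3.29%), searched on both strands. The CArG box was searched only as the exact pattern CCWWWWWWGG, where W is A or T, and near matches were not counted. The Nr4a1 window holds such a near match, ccttgtatgg, which departs from the pattern at 1 base. CGTCA overlaps TGCGTCA and TGACGTCA by construction. These matches describe the letters of 1 window per gene, the Nr4a1 window being 72.3% and the Nr4a2 window 48.7% G or C, and other starts of these genes were not searched.

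The arrays differed technically between and within the enrichment sets, which bears on the dim members. Bacterial hybridisation controls, spiked at fixed amounts, had a geometric mean signal of 2264 to 11705 on the 4 arrays of set I and vehicle 5, and of 53482 to 320024 on the other 7 arrays. Bacillus control probe sets, used here as a measure of background, had a geometric mean of 14.8 to 22.4 on those 5 arrays and of 52.8 to 183 on the 7. This geometric mean is the background mean referred to throughout. The array of vehicle 3 was unlike the others: its Spearman correlations with them had a median of 0.34, whereas the medians of the other 11 arrays were 0.62 to 0.69. The gonadotrope genes Lhb and Cga were bright on all 12 arrays, at 12563 or more, but so were the somatotrope gene Gh1 and the lactotrope gene Prl, at 16159 or more. The probe set of Gnrhr, the GnRH receptor, was below the background mean on 5 arrays. In such mixed cultures fewer cells of a type and less RNA per cell cannot be told apart.

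Nr4a3 was the member with the steadiest difference between agents. This receptor, also called NOR-1, is the member of the family that does not pair with RXR. Its brightest probe set, 1393389_at, gave signals of 831 and 800 in GnRH 1 and 2 against 376 and 413 in vehicle 1 and 2 of set I. In set II the signals were 1032 and 1664 in GnRH 3 and 4 against 401 and 777 in vehicle 3 and 4. In set III they were 1340 and 927 in GnRH 5 and 6 against 578 and 482 in vehicle 5 and 6. Every GnRH sample lay above every vehicle sample, in 36 of 36 pairs, although the closest pair, GnRH 2 and vehicle 4, was only 800 against 777. Of the 18625 probe sets tested, 0.0537% had GnRH samples that all lay higher in this way, and 0.0537% had GnRH samples that all lay lower.

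The Nr4a3 difference was 2.14-fold (95% confidence interval 1.39 to 3.27) on the scale of signal plus 16, or 1.09 ± 0.29 as a log2 difference (SE, n = 6 per group). By enrichment set it was 1.02, 1.21 and 1.06 (I, II, III), and the moderated F test called no difference of response between sets (limma adjusted p = 0.999). An exact two-sided permutation of the agent within enrichment sets gave p = 0.00926, the smallest that this design allows. By the fit over all probe sets 1393389_at ranked 4 by p-value but did not pass (limma adjusted p = 0.981). In that fit 1 probe set, that of the AP-1 gene Fosb, was called higher at an adjusted p under 0.05, which is 0.00537% of those tested, and 0 were called lower, so 0 of the 5 tested members were called. At an unadjusted limma p under 0.05, 1.87% of the probe sets tested were higher and 1.58% lower.

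The other Nr4a3 probe sets were dimmer and less regular. Probe set 1369067_at gave signals of 67.6 to 565 with a median of 458 in GnRH samples, against 24.8 to 255 with a median of 106 in vehicle samples. Its signals were 558 and 381 in GnRH 1 and 2, 565 and 67.6 in GnRH 3 and 4, and 535 and 138 in GnRH 5 and 6. Against these stood 255 and 89.5 in vehicle 1 and 2, 24.8 and 122 in vehicle 3 and 4, and 236 and 35.5 in vehicle 5 and 6. The groups overlapped, with GnRH higher in 30 of 36 pairs and in 10 of the 12 pairs within sets, and vehicle 3 and 6 lay below the background mean of their own arrays. The log2 difference of 1.47 ± 0.63 (SE) was again nearly the same in the 3 sets, at 1.50, 1.55 and 1.35, but did not pass the test (limma adjusted p = 0.981; exact within-set permutation p = 0.0741, n = 6 per group).

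Probe set 1369217_at, the dimmest of the 3, was higher with GnRH in sets I and II but not in set III. In sets I and II its signals were 198, 200, 249 and 498 in GnRH 1 to 4, against 112, 43.3, 68.5 and 40.7 in vehicle 1 to 4. In set III they were 409 and 52.5 in GnRH 5 and 6, against 220 and 480 in vehicle 5 and 6. GnRH samples were thus all higher within sets I and II, while the agents overlapped in set III. The set differences were 1.30, 2.42 and -1.002 on the log2 scale, a spread that did not pass the F test (limma adjusted p = 0.927). Pooled over sets it was 0.91 ± 0.64 (SE; exact within-set permutation p = 0.213, n = 6 per group; limma adjusted p = 0.981), and 3 of the 12 signals, in vehicle 3, vehicle 4 and GnRH 6, lay below the array's background mean. The sign in set III rests on GnRH 6: without it the set III value was 0.31 and the pooled value 1.47. Over all arrays left out in turn the pooled value ran from 0.60, without GnRH 4, to 1.47.

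The unequal differences of the Nr4a3 probe sets did not exceed the spread between arrays. The response of 1393389_at minus that of 1369067_at was -0.37 on the log2 scale (exact within-set permutation p = 0.602, n = 6 per group). Against 1369217_at it was 0.19 (exact p = 0.787), or -0.28, -1.21 and 2.06 by set. These tests with 6 arrays per agent do not show that the probe sets respond alike.

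**Figure D1:**
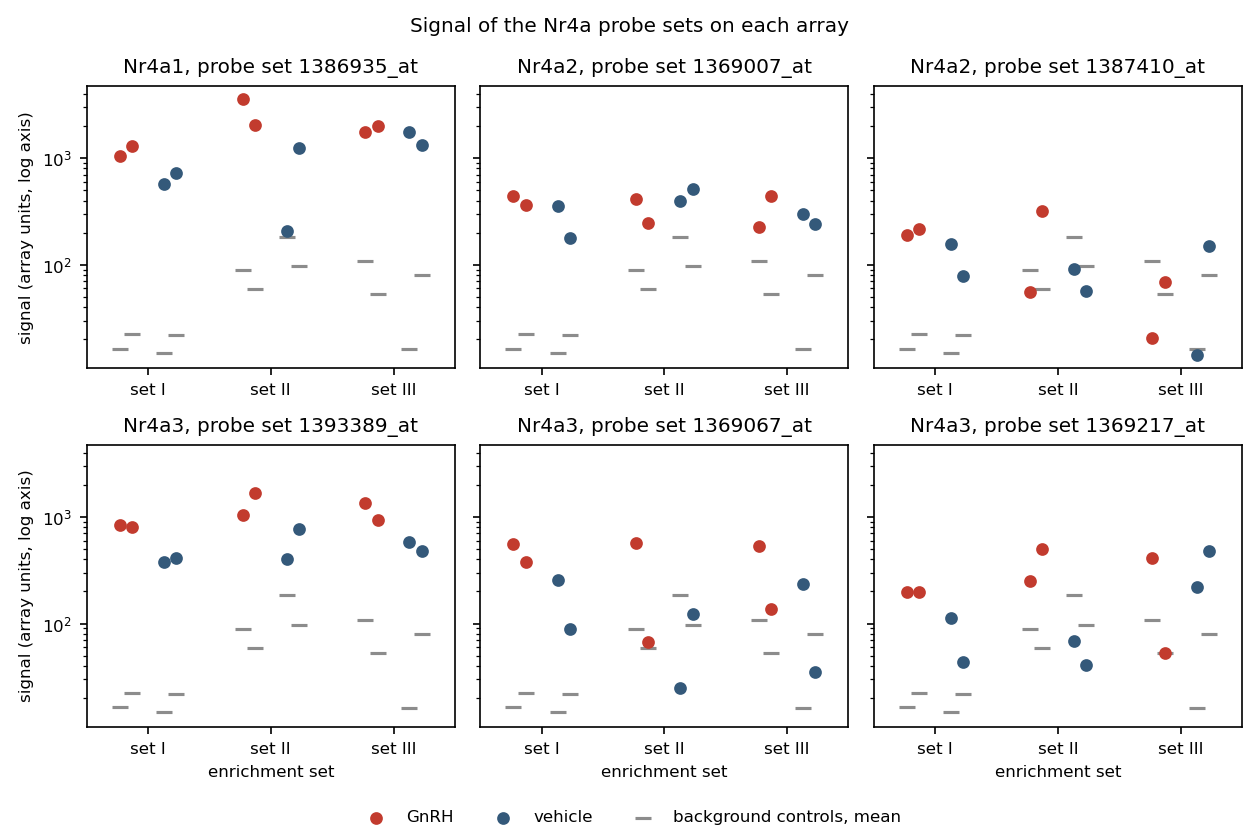
Signal of each Nr4a probe set on each array (log axis, array units), by enrichment set, with GnRH samples in red to the left of vehicle samples in blue and the geometric mean of the background controls of the same array as a grey bar. Nr4a3 1393389_at lies at 800 or above in all GnRH samples and at 777 or below in all vehicle samples, while Nr4a2 1387410_at falls to the level of the grey bars on several arrays.

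Nr4a1, also called Nur77 or NGFI-B, was higher in GnRH samples of every set by an amount that varied. Its probe set 1386935_at gave 1042 and 1290 in GnRH 1 and 2 against 575 and 725 in vehicle 1 and 2. In set II it gave 3593 and 2054 in GnRH 3 and 4 against 208 and 1232 in vehicle 3 and 4. In set III it gave 1742 and 1995 in GnRH 5 and 6 against 1760 and 1338 in vehicle 5 and 6. GnRH samples were higher in 11 of the 12 pairs within sets, vehicle 5 exceeding GnRH 5, and in 30 of all 36 pairs.

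The Nr4a1 difference was 2.23-fold (95% confidence interval 1.22 to 4.09), a log2 difference of 1.16 ± 0.41 (SE, n = 6 per group). It did not pass the adjusted test (limma adjusted p = 0.981), whereas the exact within-set permutation of this single value gave p = 0.0185. By set it was 0.83, 2.37 and 0.28. The size in set II rests in part on vehicle 3, the array that stood apart, whose Nr4a1 signal of 208 was close to the background mean of that array, 183. Without that array set II still gave 1.13, with vehicle 4 as its only vehicle array. Without vehicle 3 the pooled difference was 0.70 ± 0.24 (SE, n = 6 GnRH and 5 vehicle; limma adjusted p = 0.987). The agent-by-set F test did not pass (limma adjusted p = 0.929), nor did it for any other member or for any of the probe sets tested, of which 5.36% had an unadjusted limma p under 0.05. Without vehicle 4, which leaves vehicle 3 as the only vehicle array of set II, it did for Nr4a1 (limma adjusted p = 0.021; set differences 0.83, 3.61 and 0.28).

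Nr4a2, also called Nurr1 and best known from midbrain dopamine neurons, showed no difference beyond the spread. Its brighter probe set 1369007_at gave 436 and 363 in GnRH 1 and 2, 410 and 248 in GnRH 3 and 4, and 225 and 439 in GnRH 5 and 6. The vehicle signals were 354 and 177 in set I, 392 and 514 in set II, and 300.2 and 243 in set III. GnRH samples were above both vehicle samples in set I, below vehicle 4 in set II and on either side of the vehicle samples in set III. The pooled difference was 1.09-fold with a 95% confidence interval of 0.602 to 1.97 (log2 0.12 ± 0.40 SE, n = 6 per group; limma adjusted p = 0.999; exact within-set permutation p = 0.713). The set differences were 0.63, -0.47 and 0.21.

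The second Nr4a2 probe set, 1387410_at, was near background. Its signals ran from 20.4 to 316 with a median of 130 in GnRH samples, and from 14.1 to 156 with a median of 84.7 in vehicle samples. In 2 of the GnRH samples and 3 of the vehicle samples the signal was below the background mean of the array. In the fit without the filter its GnRH minus vehicle value was 0.41 ± 0.62 (log2, SE; limma adjusted p = 1.00), with 0.78, 0.80 and -0.36 in the 3 sets. Single arrays moved that value to between 0.08, without GnRH 4, and 0.82, without vehicle 6. The response of 1369007_at minus that of 1387410_at was -0.29 (exact within-set permutation p = 0.602).

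**Figure D2:**
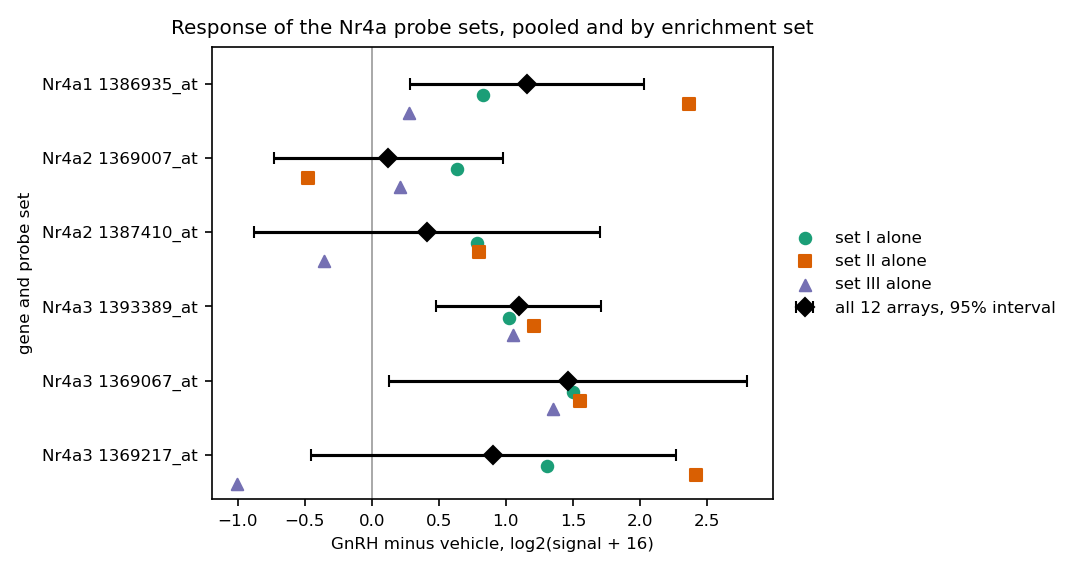
GnRH minus vehicle difference of each Nr4a probe set (x axis, log2 of signal plus 16) over all 12 arrays (black diamonds with 95% confidence intervals) and within enrichment sets I, II and III (coloured points). The 3 set values of Nr4a3 1393389_at lie between 1.02 and 1.21, whereas those of Nr4a3 1369217_at run from -1.002 to 2.42.

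The responses of the 3 genes were compared through their brightest probe sets, within each array, as differences of responses and not of levels. The Nr4a3 response exceeded that of Nr4a2 by 0.97 on the log2 scale, or 0.39, 1.68 and 0.85 by set (exact within-set permutation p = 0.0463, n = 6 per group, 1 of 3 such comparisons and unadjusted). With 1 array left out this p ran from 0.00926 to 0.130 and the difference from 0.73 to 1.21. It was above 0.05 without vehicle 1, 3, 4, 5 or 6 or without GnRH 2, 4 or 5. The Nr4a1 response exceeded that of Nr4a2 by 1.04 (exact p = 0.12), the mean of 0.20, 2.84 and 0.07 in the 3 sets. Nr4a1 and Nr4a3 differed by 0.06 (exact p = 0.926), the set values being -0.19, 1.16 and -0.78.

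The criterion of the series' design text was applied here as a fold between group means of at least 1.5, with at least 50% of pairs also reaching 1.5. By this criterion Nr4a1 and all 3 Nr4a3 probe sets were up. The share of the 36 pairs reaching that fold was 63.9% for Nr4a1 and 83.3%, 75% and 61.1% for Nr4a3 1393389_at, 1369067_at and 1369217_at. The Nr4a2 probe sets reached it in 19.4% and 44.4% of pairs and were not up. Over all probe sets tested, 7.62% were up by this criterion and 7.6% were down. Nr4a1 and the Nr4a3 probe sets 1393389_at and 1369067_at were higher in each of the 3 sets, as were 12.6% of all probe sets tested. Pooled over sets all 5 tested members had a positive difference, as did 53.6% of all probe sets tested.

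**Figure D3:**
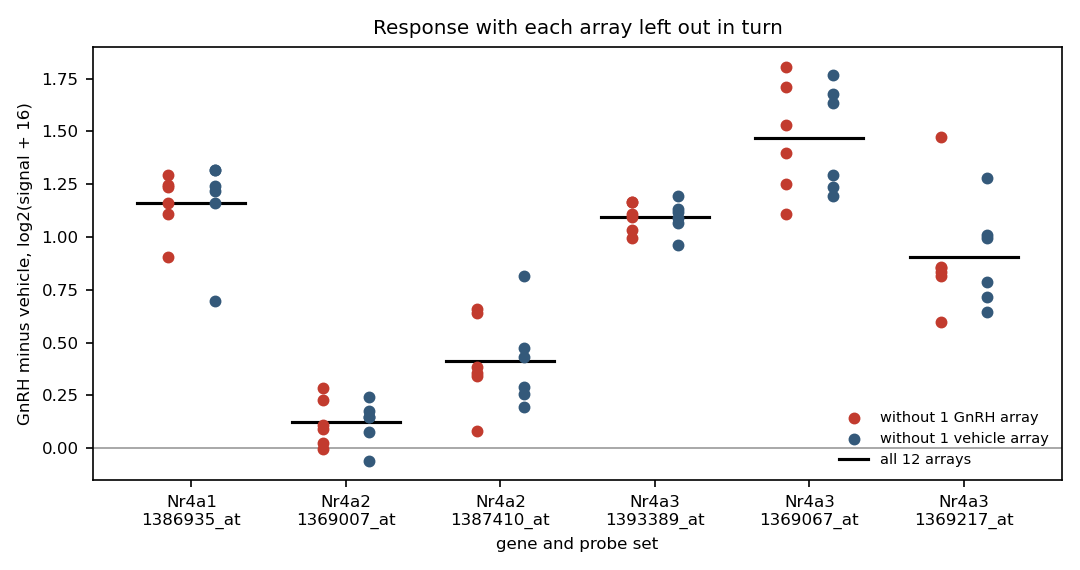
GnRH minus vehicle difference of each Nr4a probe set (y axis, log2 of signal plus 16) with each of the 12 arrays left out in turn (red without a GnRH array, blue without a vehicle array) and with all arrays (black line). Nr4a3 1393389_at keeps within 0.96 to 1.20, and the lowest Nr4a1 value, 0.70, is that without vehicle 3.

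The genes whose pattern was most like that of Nr4a3 1393389_at over the 12 arrays, once the set means had been removed, were Arc (Pearson r = 0.92, Spearman rho = 0.88) and Fosb (r = 0.91, rho = 0.81) of 10677 other genes. Arc, an activity-regulated cytoskeletal gene, gave 266, 214, 466, 826, 1242 and 537 in GnRH 1 to 6, against 28.1, 47.4, 116, 94.8, 106 and 65.6 in vehicle 1 to 6. Fosb gave 2128, 1359, 1984, 1900.1, 3136 and 4776 in GnRH 1 to 6, against 476, 342, 125, 403, 1073 and 1068 in vehicle 1 to 6. The Arc signals of vehicle 3, 4 and 6 and the Fosb signal of vehicle 3 lay below the background means of their arrays. Both immediate early genes, like Nr4a3, were among the 10 probe sets in which all GnRH samples lay above all vehicle samples. Next came Dlgap1, Car9 and Xpnpep1, with r of 0.89, 0.89 and 0.88. These values are descriptions over arrays that share the difference between agents.

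Nr4a1 had other genes closest to it, namely Pdcd6ip (r = 0.98), Ganab (0.97), Armcx4 (0.96), Agfg1 (0.95) and Dnaja2 (0.95). Without vehicle 3 these values were 0.94, 0.83, 0.78, 0.85 and 0.87, so that array carried part of the likeness. For Nr4a2 1369007_at they were Tnni1 (r = 0.91), Enah (0.88), Adss1 (0.83), Kmt2c (0.81) and Ralb (0.80), whose probe sets all differed between agents by less than 1 SE.

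**Figure D4:**
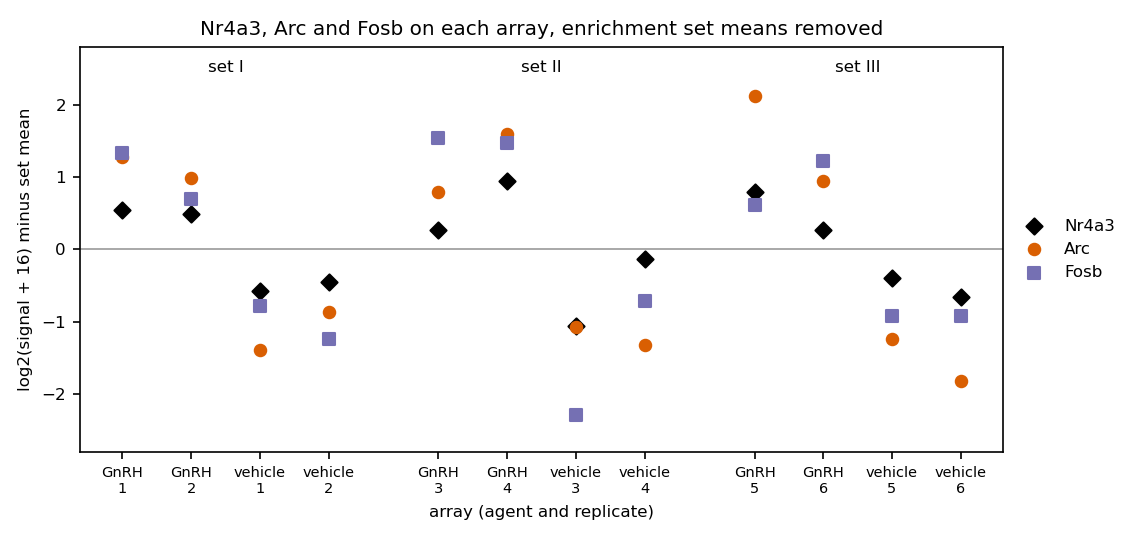
Nr4a3 1393389_at (black), Arc (orange) and Fosb (purple) on each array (x axis, grouped by enrichment set, GnRH before vehicle) as log2 of signal plus 16 minus the set mean (y axis). All 3 genes lie above 0 in each GnRH sample and below 0 in each vehicle sample.

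The genes around the family were summarised from lists, each gene by its brightest tested probe set. Over all 10680 genes tested 54.6% were higher in GnRH samples and the median log2 difference was 0.04. Among 30 other immediate early transcription factors tested, of 32 listed, 20 were higher and the median was 0.36. Fosb alone of these passed (log2 2.29 ± 0.32 SE; limma adjusted p = 0.0411). That call was lost without any 1 array other than vehicle 3, and also with the replicate number as a block, a pseudocount of 1, quantile normalization or no variance trend. The zinc-finger genes Egr1 and Egr2 differed by 0.77 ± 0.29 and 1.16 ± 0.44. By set (I, II, III) Egr1 gave 0.32, 1.61 and 0.38, and Egr2 1.29, 0.66 and 1.53. The largest Egr1 value was thus that of set II, which holds vehicle 3, the array that stood apart. The part of that array in the counts and medians of the lists was not tested.

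Among 25 tested upstream regulators of NR4A genes, of 30 listed, such as CREB and MEF2 factors, their kinases and class II histone deacetylases, 16 were higher, 0 passed in either direction and the median was 0.21. The members with the smallest p were Rps6ka3, which encodes a kinase of CREB, Mef2a, and Prkar1a, which encodes a regulatory subunit of protein kinase A. Rps6ka3 differed by 1.30 ± 0.53 (log2, SE), but its other tested probe set gave 0.05. Mef2a differed by 0.58 ± 0.30, with 0.60, -0.41 and 0.45 from its other probe sets, and Prkar1a by 0.68 ± 0.39, with 0.18 and 0.28 from others. By set (I, II, III) Rps6ka3 gave 0.12, 2.78 and 1.02, Mef2a -0.21, 1.19 and 0.75, and Prkar1a 0.06, 1.34 and 0.64. Each value was largest in set II, which holds vehicle 3, the array that stood apart, and the part of that array was not tested.

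Partners and coregulators of the receptors were mostly lower, in 11 of 15 tested genes of 20 listed, with 0 passing and a median of -0.15. The coactivator gene Ncoa1 differed by -0.57 ± 0.34 (log2, SE) and the RXR gene Rxrg by -0.67 ± 0.52, with 0.45 from its other probe set. The glucocorticoid receptor gene Nr3c1, whose product opposes NR4A action on Pomc, differed by -0.97 ± 0.61, of which set III gave -2.89 and sets I and II 0.01 and -0.03. Its lowest GnRH signal was 20.1 against a lowest vehicle signal of 532, and 1 of its signals lay below the background mean. Among 26 other nuclear receptors tested, of 45 listed, a list that shares several genes with the partners, 11 were higher, 0 passed and the median was -0.10. Nr1i2 differed by 0.98 ± 0.46, the clock receptor gene Nr1d2 by 0.88 ± 0.45 and Nr5a1, which encodes the gonadotrope factor SF-1, by -1.15 ± 0.59. In sets I, II and III Nr1i2 gave 0.34, 2.18 and 0.42, Nr1d2 0.39, 2.65 and -0.39, and Nr5a1 -0.26, -2.45 and -0.74. Each was thus farthest from 0 in set II, which holds vehicle 3.

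Of 17 tested genes reported as NR4A targets in various tissues, of 28 listed, 8 were higher and 9 lower, 0 passed and the median was -0.21. Pomc, the corticotrope target, had signals of 34.1 to 1175 in GnRH samples and 143 to 1516 in vehicle samples. Its difference was -1.77 ± 0.50 (log2, SE; limma adjusted p = 0.981), and 5 of its 12 signals were below the background mean. The neurotrophin gene Bdnf differed by 1.16 ± 0.52 and the gluconeogenic gene Pck1 by 0.73 ± 0.54. The summed signal of the 3 corticotrope and melanotrope markers on the array, of 5 listed, ran from 1262 to 2367 in GnRH samples and from 943 to 2884 in vehicle samples, with none at 0 and a log2 difference of 0.05. Beside Pomc these were Tbx19, a corticotrope transcription factor, at 0.64 and Pcsk2, a prohormone convertase, at 0.56, of which 0 passed. The largest part of that sum differed between arrays. In GnRH 3 it was Pcsk2, at 1191, with Tbx19 at 610 and Pomc at 52.6. In vehicle 2 it was Pomc, at 1516, with Pcsk2 at 1200 and Tbx19 at 169. The sum is therefore not a measure of corticotrope content alone. The summed signal of the 6 gonadotrope markers ran from 71098 to 494334 in GnRH samples and from 32142 to 473414 in vehicle samples. Its log2 difference was 0.12, 0.22 and 2.09 in sets I, II and III, where Nr4a3 1393389_at gave 1.02, 1.21 and 1.06. That sum is mostly Cga and Lhb signal, and in set III vehicle 5, the array there with low hybridisation control signal, had a Cga signal of 17041 against 241811 in vehicle 6. Of the 6 gonadotrope markers 4 were higher, Lhb by 0.74, Cga by 0.89, Fshb by 0.13 and Gnrhr by 0.18. The other markers, the gonadotrope factors Foxl2 and Nr5a1, had differences of -0.67 and -1.15. For Nr5a1 set II gave -2.45, where GnRH 4, at 26.2, lay below its array's background mean of 59.0. The summed somatotrope and lactotrope markers had 0.29, -0.66 and 2.01 in the 3 sets. The part of cell makeup in the differences of single members was not tested.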

How the data were processed

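Gene expression was measured on 12 arrays, 6 from GnRH and 6 from vehicle samples. Groups and enrichment sets were taken from the labels. The labels' protocols describe RNA amplification in 2 rounds, which shortens products toward the 3′ end. The ratio of 3′ to 5′ control signal ran from 7.76 in vehicle 3 to 43.7 in vehicle 2 for Gapdh. For beta-actin it ran from 5.46 in vehicle 3 to 29.9 in GnRH 6. The part of this unevenness in the differences between probe sets of a gene was not tested. The authors deposited 1 linear intensity per probe set and array, made with GCOS per the submitters' processing notes (settings not given in the sources used here). Trimmed means of 497 to 499 show that the authors' arrays had been scaled.

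The deposited intensity values were rescaled to a trimmed mean of 500 (2% trimmed at each end), 16 was added and log2 was taken, so folds of dim probe sets are understated. Of 31042 non-control probe sets, the 18625 at or above the 40th percentile of mean log2 value were tested with limma 3.58.1 in R 4.3.3, with the enrichment set and agent as terms, a variance trend and Benjamini-Hochberg adjustment at 0.05. The fit was tested on simulated data. Single values were tested by all 216 within-set permutations (smallest p 0.00926). Genes named from lists were the up to 3 with the smallest p, and 5 like genes were taken per member. In the annotation 20826 probe sets carry 1 symbol, 436 several and 9780 none; the 3 members matched the RefSeq gene table of GRCr8, and probe sets were not aligned here. The members, lists and tests were chosen with earlier results of these data known. The titles call the samples biological replicates, but the 4 samples of a set carry 1 enrichment set label and come from culture wells whose division among samples is not described, so p-values measure the spread between these samples, which may be technical. Same-numbered samples deviated together at r of -0.03, -0.03 and -0.14 in the 3 sets, so the numbers were not taken as pairs. The number of arrays limits the precision.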

Additional observations from a re-analysis of the deposited data

How the results depend on the processing

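Over 30 alternatives each, the differences of Nr4a1 and of Nr4a3 1393389_at stayed positive (0.28 to 2.37 and 0.84 to 1.21) and neither passed limma's adjusted threshold, with adjusted p from 0.294 upward. Both met the fold and pair criterion of the design text (log2 1.16 and 1.09). The mean over all 3 Nr4a3 probe sets was 1.16 (exact within-set permutation p = 0.0278). On the 7 arrays with high and the 5 with low hybridisation control signal, alternatives chosen after seeing the data, Nr4a1 gave 1.61 and 0.35 and Nr4a3 1.20 and 0.84. The 5 arrays were those of set I and vehicle 5, fitted with no set term, so set III entered with a vehicle array only. The Nr4a1 signal was 1760 in vehicle 5 against 575 and 725 in vehicle 1 and 2, and set I alone gave 0.83. Control level and set thus cannot be told apart in these subsets. With the hybridisation control level as a covariate Nr4a1 and Nr4a3 gave 1.46 and 1.16. With the replicate number as a block Nr4a1, Nr4a2 and Nr4a3 kept 1.16, 0.12 and 1.09 (SE 0.45, 0.43 and 0.30; limma adjusted p = 1.00 each), and the count of called probe sets went to 0; 4 of 12 samples correlated best with their own number. With each array left out, Nr4a1 ran from 0.70 to 1.32, Nr4a2 1369007_at from -0.06 to 0.28, Nr4a2 1387410_at from 0.08 to 0.82, Nr4a3 1393389_at from 0.96 to 1.20, 1369067_at from 1.11 to 1.81, 1369217_at from 0.60 to 1.47, Nr4a1 minus Nr4a3 from -0.19 to 0.32, Nr4a1 minus Nr4a2 from 0.69 to 1.39 and Nr4a3 minus Nr4a2 from 0.73 to 1.21. The sign of Nr4a2 1369007_at turned without vehicle 2 (-0.0585) and without GnRH 6 (-0.0029), in set II alone (-0.47) and on the 7 arrays (-0.14), that of 1387410_at in set III alone (-0.36) and on the 7 arrays (-0.16), and that of Nr4a3 1369217_at in set III alone (-1.002). In that set the sign of 1369217_at is set by GnRH 6, without which the value was 0.31; the cause of the other turns was not tested. The 1 called probe set became 0 with a pseudocount of 1, quantile normalization, the 60th percentile filter, no set term, no variance trend, each set alone and either array subset, became 2 with array weights, and with an array left out was 1 without vehicle 3 and 0 without any other. The count of members whose response differed between sets was 1 without vehicle 4 and 0 without any other array. Counting all tested probe sets gave 27 of 42 higher for the upstream regulators and 7 of 22 for the partners, where more probe sets enter by construction. Signals near background limit 1387410_at, 1369067_at and 1369217_at.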
